A study of Mus musculus with 6 samples.

Results

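The Hox genes encode homeodomain transcription factors that lie in 4 clusters on different chromosomes. All genes of the count table whose symbol is Hoxa, Hoxb, Hoxc or Hoxd with a number were taken, which gave 38 of 38561 genes; Hoxd4 was not analysed here. The HoxA cluster held 11 of them, HoxB 10, HoxC 9 and HoxD 8. RNA sequencing had measured them in cultures of undifferentiated mouse embryonic stem cells (ESCs), strain 129X1/SvJ x 129S1/Sv, at passages 13 to 17. The cells grew without feeders on gelatin in medium with Knockout Serum Replacement and 1000 U/ml leukemia inhibitory factor, and no other treatment or genetic change is named. They were sorted by flow cytometry on PECAM1, an adhesion protein of undifferentiated ESCs, and PDGFRa, a growth factor receptor that is also found on primitive endoderm. By the title of the series, PDGFRa-positive cells stand in culture for early primitive endoderm cells, the extraembryonic tissue that forms beside the epiblast. The 3 fractions, with 2 libraries each, are called PDGFRa-only (PECAM1minPDGFRaplus in the labels), double-positive (PECAM1plusPDGFRaplus) and PECAM1-only (PECAM1plusPDGFRamin). The titles number the libraries of a fraction Exp1 and Exp2, which may name separate experiments; no label says whether these were separate cultures, so each p measures only the spread between these libraries, which may be technical.

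In the embryo, Hox genes are switched on in the order in which they stand in their cluster, and this order matches the body level at which each acts, from the hindbrain at low paralog numbers to the tail and limb ends at high numbers. In ESCs the clusters are a classic target of Polycomb complexes, which place repressive marks on histones, while Trithorax complexes place the opposing marks. Retinoic acid opens the clusters in differentiating ESCs, and Hox proteins bind DNA together with TALE homeodomain cofactors of the Pbx, Meis and Pknox families. Paralog numbers 1 to 3 are called anterior here, 4 to 8 central and 9 to 13 posterior.

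The libraries held 4809661 to 7273669 counts. Counts of the sorting genes followed the labels: Pecam1 had 7 and 10 counts in the PDGFRa-only libraries, 342 and 287 in the double-positive and 1140 and 911 in the PECAM1-only libraries, and Pdgfra had 2267 and 4007, 3508 and 3310, and 14 and 12. All 7 primitive endoderm markers rose and all 7 pluripotency markers fell in the PDGFRa-only fraction against the PECAM1-only fraction (adjusted p below the threshold for each, edgeR). Of all tested genes, 30.1% were called higher and 28.8% lower. The falls differed in size: Nanog fell by 8.72 on the log2 scale but Pou5f1 by 0.86. Pou5f1 still had 432 and 374 counts in the PDGFRa-only libraries. Hox counts were low against this depth. All members together had 1410 counts over the 6 libraries, and the highest, Hoxa11, had 243. Hoxd12 had 0 counts, 13 members had 1 to 9, 16 had 10 to 49 and 8 had 50 or more. Only 12 members passed the filter on low counts and were tested, with totals down to 24; members that were not tested had totals up to 45. A member can pass that filter through a single fraction in which it is high, so the tested members are not a sample of all 38.

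On GRCm38, in GENCODE M21 coordinates from the outermost ends of the members, HoxA spans chromosome 6, 52155590 to 52260880, HoxB chromosome 11, 96194316 to 96368256, HoxC chromosome 15, 102921103 to 103036852, and HoxD chromosome 2, 74668310 to 74765142. HoxA held 717 of the Hox counts and 4 tested members, HoxC 276 counts and 3 tested members, HoxB 219 and 2, and HoxD 198 and 3. Along the clusters, the 16 posterior members held 915 counts and 8 of the tested members. The 14 central members held 323 counts and 3 tested members, and the 8 anterior members held 172 counts.

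The promoters of Hoxa10, Hoxa11 and Hoxb4 are shown because these 3 genes differed between fractions under every processing setting tried (values below). Each is the 300 bases from 250 before to 50 after a transcription start of the RefSeq annotation of GRCm38.p6, written 5′ to 3′ on the strand of the gene, with matches to the motifs searched in capitals. RefSeq lists separate starts for Hoxa10.
Hoxa10, upstream start, chr6:52240805-52241104, minus strand: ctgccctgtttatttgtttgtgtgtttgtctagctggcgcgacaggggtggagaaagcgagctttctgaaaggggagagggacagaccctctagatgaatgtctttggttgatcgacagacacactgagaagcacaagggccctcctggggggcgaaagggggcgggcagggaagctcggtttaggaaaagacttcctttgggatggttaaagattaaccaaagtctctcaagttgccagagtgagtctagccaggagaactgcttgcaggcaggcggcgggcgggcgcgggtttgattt
Hoxa10, downstream start, chr6:52234890-52235189, minus strand: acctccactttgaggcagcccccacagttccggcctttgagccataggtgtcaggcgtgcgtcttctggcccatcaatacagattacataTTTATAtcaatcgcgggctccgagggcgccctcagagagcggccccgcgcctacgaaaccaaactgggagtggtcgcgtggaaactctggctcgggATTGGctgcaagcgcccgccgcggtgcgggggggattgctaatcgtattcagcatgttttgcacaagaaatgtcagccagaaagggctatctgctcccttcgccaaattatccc
Hoxa11, chr6:52245761-52246060, minus strand: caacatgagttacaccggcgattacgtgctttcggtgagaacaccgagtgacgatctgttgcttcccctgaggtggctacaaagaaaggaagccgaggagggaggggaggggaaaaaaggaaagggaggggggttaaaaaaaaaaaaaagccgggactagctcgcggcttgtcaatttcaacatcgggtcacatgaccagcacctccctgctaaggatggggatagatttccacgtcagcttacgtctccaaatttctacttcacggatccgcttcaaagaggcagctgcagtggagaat
Hoxb4, chr11:96318017-96318316, plus strand: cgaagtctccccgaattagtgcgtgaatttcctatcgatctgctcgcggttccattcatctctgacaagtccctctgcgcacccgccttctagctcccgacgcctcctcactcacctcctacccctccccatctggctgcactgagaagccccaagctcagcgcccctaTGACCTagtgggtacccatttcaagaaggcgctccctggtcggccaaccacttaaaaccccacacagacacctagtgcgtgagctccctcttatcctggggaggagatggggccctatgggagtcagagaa
The downstream Hoxa10 promoter holds a TATA box match 160 bases before the start and a CCAAT box match 64 bases before it. The Hoxb4 promoter holds a nuclear receptor core site, the hexamer that retinoic acid receptors and their relatives bind, 81 bases before the start. No motif searched occurs in the Hoxa11 window or in the upstream Hoxa10 window.

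RefSeq entries were found for 23 promoters of 21 members. These windows had a median GC content of 58.0% and a median of 15 CG dinucleotides, against 52.7% and 7 over all 32851 promoters of the same length. Each motif was searched on both strands. The nuclear receptor core site (AGGTCA) occurred in 6 of the 23 windows (26.1%, against 16.3% of all promoters), at Hoxa5, Hoxb4, Hoxc4, Hoxd10, Hoxd3 and Hoxd8. A Pbx-Hox motif (TGATNNAT) occurred in 4 windows (17.4%, against 8.85%), among them Hoxb1, and a Cdx motif (TTTATG) in 4 (17.4%, against 11.9%). A CCAAT box (CCAAT) was found in 14 windows (60.9%, against 37.4%) and a TATA box (TATAAA) in 3 (13%, against 13.6%). The TATA and Cdx letters can overlap. The GATA motif (AGATAA) occurred in none of the 23 windows, against 11.2% of all promoters. These matches describe the letters of the windows and were not related to the counts.

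Summed over all 38 members, the Hox level was highest in the PDGFRa-only fraction, at 51.7 and 54.0 CPM (counts relative to library size, scaled between libraries). It was 41.1 and 46.2 CPM in the double-positive libraries and 17.3 and 22.5 CPM in the PECAM1-only libraries, so that no fraction overlapped another. The means were 52.9 ± 1.58, 43.7 ± 3.58 and 19.9 ± 3.70 CPM (SD, n = 2). Most of this contrast lay in HoxA. Its 11 members summed to 26.2 and 32.4 CPM in PDGFRa-only, 22.6 and 27.2 in double-positive and 3.34 and 6.87 in PECAM1-only libraries, a 5.74-fold ratio of means between the single-positive fractions. HoxD summed to 6.94 and 7.24 CPM, 4.55 and 6.09, and 4.06 and 3.59, in the same order, a ratio of 1.85. HoxB summed to 8.96 and 6.93, 5.65 and 6.09, and 4.35 and 4.38 CPM, a ratio of 1.82. For HoxC the fractions overlapped, at 9.63 and 7.39, 8.32 and 6.87, and 5.51 and 7.66 CPM.

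The central and posterior members were lower in the PECAM1-only fraction than in both PDGFRa-positive fractions without overlap. The central members summed to 13.5 ± 0.174 CPM in the PDGFRa-only, 9.78 ± 0.0701 in the double-positive and 3.64 ± 1.04 in the PECAM1-only fraction (SD, n = 2). The posterior members summed to 33.6 ± 3.83, 27.9 ± 0.227 and 13.5 ± 1.45 CPM. The anterior members had 7.17 and 4.22, 3.30 and 8.58, and 1.89 and 3.59 CPM, and there the double-positive and PECAM1-only libraries overlapped. Within the posterior class the clusters went different ways. Posterior HoxA members (Hoxa9, Hoxa10, Hoxa11 and Hoxa13) were 15.4-fold higher by their summed means in the PDGFRa-only than in the PECAM1-only fraction, while the ratio was 1.84 for posterior HoxD, 0.927 for posterior HoxC and 0.597 for posterior HoxB. The posterior genes held the largest share of Hox counts in every library, 59.7% to 72.3%. Without Hoxa10 and Hoxa11, a choice made after their values were seen, the other 36 members summed to 37.4 and 31.2 CPM in the PDGFRa-only, 24.6 and 32.1 in the double-positive and 16.3 and 21.6 in the PECAM1-only fraction. These sums are descriptions and carry no test. In such bulk libraries, fewer cells that express a gene and less RNA of it per cell cannot be told apart.

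**Figure D1:**
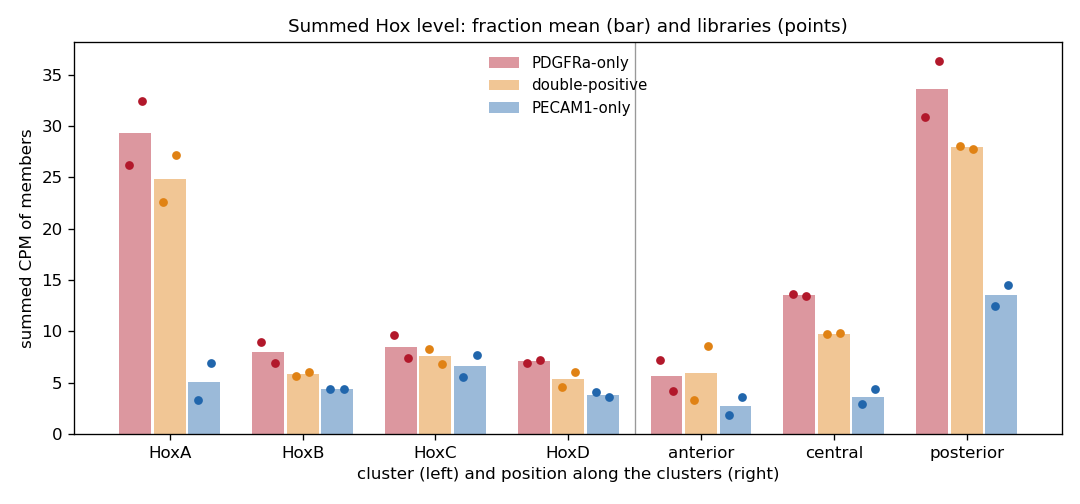
Summed CPM of the Hox members (y axis) in each cluster and position class (x axis); bars are the mean of a fraction and points its 2 libraries. HoxA runs from 29.3 CPM in the PDGFRa-only fraction to 5.11 CPM in the PECAM1-only fraction, while the HoxC libraries overlap.

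The largest fitted rise was at Hoxa11, which patterns the forearm and the kidney. It had 40 and 88 counts in the PDGFRa-only libraries, 56 and 55 in the double-positive libraries and 4 and 0 in the PECAM1-only libraries. Every PDGFRa-positive library was far above both PECAM1-only libraries. On the log2 scale Hoxa11 rose by 5.14 from PECAM1-only to PDGFRa-only cells (SE 0.553, adjusted p = 8.16e-08, edgeR) and by 4.76 from PECAM1-only to double-positive cells (SE 0.567, adjusted p = 8.20e-07). The ratio of pooled counts per library size was 38.3, with an exact 95% counting interval of 14.6 to 143; such intervals cover counting error only, since amplified reads are not independent molecules. Because PECAM1-only replicate 2 had 0 counts, leaving out PECAM1-only replicate 1 gave a fitted change of 9.09 and leaving out replicate 2 gave 4.23. Its antisense neighbour Hoxa11as, a noncoding transcript of the opposite strand, had 15 and 33, 11 and 20, and 0 and 0 counts, in the order PDGFRa-only, double-positive, PECAM1-only. Against a floor of 3 counts over the fraction it was at least 19.2-fold higher in the PDGFRa-only and at least 10.7-fold higher in the double-positive than in the PECAM1-only fraction (adjusted p = 4.20e-06 and 1.11e-04, edgeR). Of the Hoxa11 exon bases, 35.0% are shared with this antisense gene, and whether counting used strand is not given in the sources used here, so reads of the pair cannot be told apart.

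Hoxa10, a regulator of uterine and lumbar development that stands next to Hoxa11, had 24 and 63 counts in the PDGFRa-only, 49 and 35 in the double-positive and 3 and 6 in the PECAM1-only libraries. The PDGFRa-only and double-positive libraries overlapped, and both lay above the PECAM1-only libraries. Hoxa10 rose by 3.45 (SE 0.50, adjusted p = 4.96e-06, edgeR) in the PDGFRa-only and by 3.24 (SE 0.503, adjusted p = 2.71e-05) in the double-positive fraction, both against PECAM1-only on the log2 scale. Without PECAM1-only replicate 2 these changes were 4.07 and 3.87. No annotated exon of another gene overlaps it.

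Hoxb4, known for its action in blood stem cells, was the HoxB member with the most counts. It had 19 and 29 counts in the PDGFRa-only, 18 and 13 in the double-positive and 2 and 1 in the PECAM1-only libraries. At 4.26 and 4.37 CPM the PDGFRa-only libraries lay above the double-positive libraries (2.83 and 2.03 CPM), which lay above the PECAM1-only libraries (0.290 and 0.156 CPM). The rise against PECAM1-only was 4.14 in the PDGFRa-only fraction (SE 0.648, adjusted p = 1.29e-05, edgeR) and 3.31 in the double-positive fraction (SE 0.697, adjusted p = 7.05e-04). With 3 pooled counts in the PECAM1-only fraction, the ratio for PDGFRa-only was 19.2 with a counting interval of 6.18 to 96.2. Neighbouring HoxB genes had few counts: Hoxb5 had 3 in all, Hoxb6 1, Hoxb3 7 and Hoxb2 4. The antisense gene Hoxb3os shares 52.9% of the Hoxb3 and 27.3% of the Hoxb2 exon bases. Whether counting used strand is not given in the sources used here, so reads in these bases cannot be assigned.

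Hoxc9, which sets the thoracic identity of motor neurons, had 8 and 12, 6 and 6, and 0 and 1 counts in the PDGFRa-only, double-positive and PECAM1-only libraries. The 3 fractions did not overlap, on a single count in the PECAM1-only fraction. Hoxc9 rose by 4.25 in the PDGFRa-only (SE 0.958, adjusted p = 6.80e-04, edgeR) and by 3.33 in the double-positive fraction (SE 1.07, adjusted p = 0.0174). The pooled ratio for PDGFRa-only was 24.0, with a counting interval of 3.83 to 993. The call in the double-positive fraction was lost without PECAM1-only replicate 1 (adjusted p = 0.186), double-positive replicate 1 (0.0839) or double-positive replicate 2 (0.0890), and with DESeq2 (0.110). The fitted change for PDGFRa-only was 3.38 without PECAM1-only replicate 1 (adjusted p = 0.0249) and 6.48 without replicate 2 (adjusted p = 0.00457).

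Hoxa7, a central gene of trunk patterning, and Hoxd9, a posterior gene of limb and trunk, rose less. The counts of Hoxa7 were 8 and 13 in the PDGFRa-only, 9 and 9 in the double-positive and 3 and 4 in the PECAM1-only libraries. In the PDGFRa-only fraction Hoxa7 rose by 1.80 against PECAM1-only (SE 0.639, adjusted p = 0.0201, edgeR). Other genes share 20.4% of its exon bases. For Hoxd9 the counts were 12 and 11, 2 and 11, and 4 and 3, so that the double-positive libraries stood on both sides of the PECAM1-only libraries. Hoxd9 rose by 1.96 in the PDGFRa-only fraction (SE 0.721, adjusted p = 0.0243, edgeR). Both calls depended on single libraries and on the tool. The adjusted p of Hoxa7 was 0.0957 when PDGFRa-only replicate 2 was left out, 0.148 and 0.0698 when PECAM1-only replicate 1 or 2 was, and 0.120 with DESeq2. That of Hoxd9 was 0.115 when PDGFRa-only replicate 1 was left out, 0.0941 and 0.121 when PECAM1-only replicate 1 or 2 was, 0.105 with DESeq2 and 0.0507 with library-size scaling.

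A pair of posterior genes went the other way. Hoxc12, at the tail end of the HoxC cluster, had 0 and 0 counts in the PDGFRa-only, 3 and 2 in the double-positive and 10 and 9 in the PECAM1-only libraries. The fractions formed 3 separate levels, and the PDGFRa-only level was at least 5.29-fold lower than the PECAM1-only level against a floor of 3 counts (adjusted p = 8.47e-04, edgeR). In the double-positive fraction the change was -1.82 (SE 0.733) and did not pass the test (adjusted p = 0.0564). Hoxc12 no longer passed the filter on low counts without PECAM1-only replicate 1, and so had no test there. Hoxb9, which acts in rib and mammary development, had 6 and 5, 6 and 14, and 24 and 19 counts in the same order of fractions. Both PECAM1-only libraries lay above every other library. Hoxb9 fell by 1.67 in the PDGFRa-only fraction (SE 0.561, adjusted p = 0.0145, edgeR), and its change of -1.04 in the double-positive fraction had an adjusted p of 0.110. Its PDGFRa-only call did not hold when PDGFRa-only replicate 2 (adjusted p = 0.119) or PECAM1-only replicate 1 (0.0934) was left out, nor with DESeq2 (0.0694).

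Hoxd8, Hoxd13 and Hoxc13 passed the edgeR test in no comparison with all libraries. Hoxd8, a central gene of HoxD, had 4 and 17 counts in the PDGFRa-only, 11 and 10 in the double-positive and 6 and 4 in the PECAM1-only libraries, with a PDGFRa-only change of 1.27 against PECAM1-only (SE 0.640, adjusted p = 0.0952, edgeR). That change was 1.76 without PDGFRa-only replicate 1, where it passed the test (adjusted p = 0.0284), and 0.25 without replicate 2 (adjusted p = 0.846). Hoxd13, which patterns the digits, had 14 and 18, 13 and 12, and 15 and 10 counts, with a change of 0.62 (SE 0.471, adjusted p = 0.268). With the authors' RPKM values and limma, Hoxd13 was called higher in PDGFRa-only against PECAM1-only (adjusted p = 0.0175). Hoxc13, which acts in hair follicles and nails, had 9 and 21, 29 and 26, and 22 and 32 counts, with a change of -0.61 (SE 0.425, adjusted p = 0.224). For Hoxc13 and Hoxd13 the sign of the small change in the double-positive fraction (0.08 and 0.06) flipped with upper-quartile and library-size scaling.

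**Figure D2:**
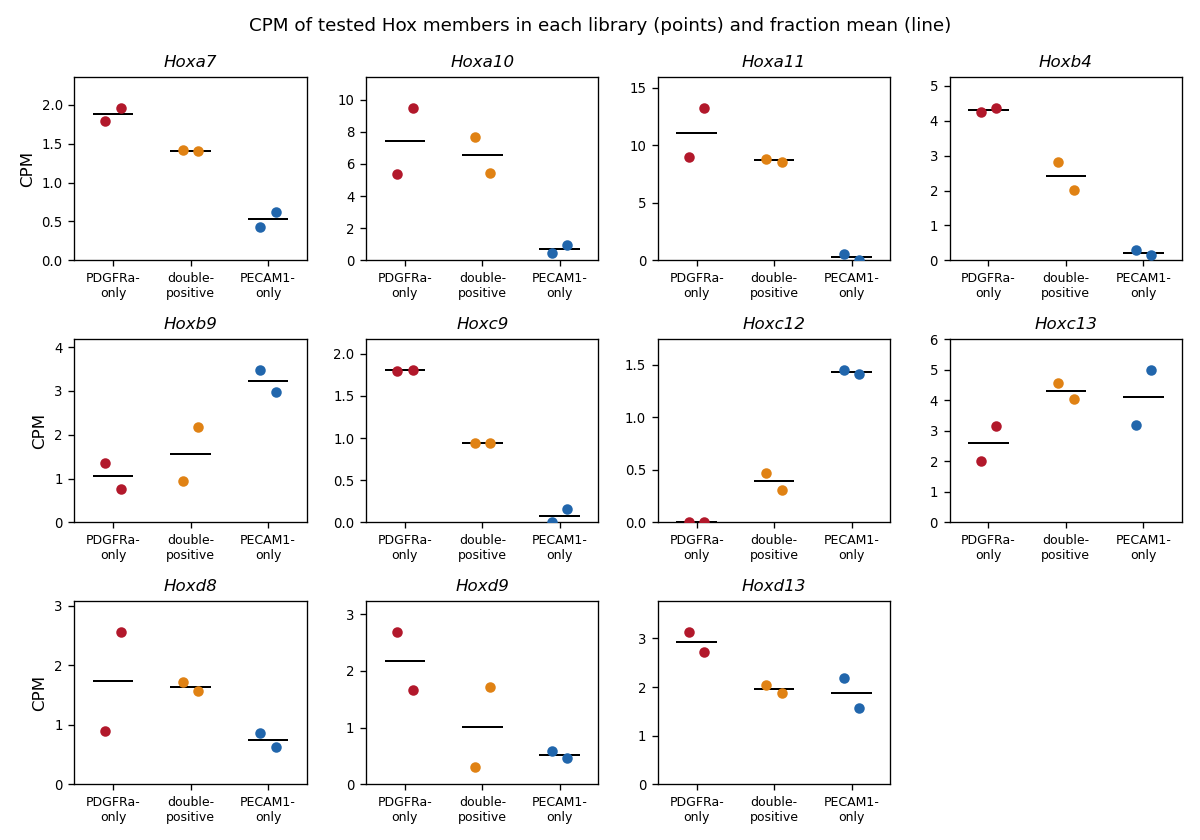
CPM (y axis, its own linear scale in each panel) of tested Hox members in each library, with a line at the mean of the fraction (x axis). Hoxa10, Hoxa11, Hoxb4 and Hoxc9 sit near 0 in both PECAM1-only libraries, while Hoxb9 and Hoxc12 are highest there.

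Counted over the comparison of the single-positive fractions, 6 of the 12 tested members were higher in the PDGFRa-only fraction and 2 were lower. Over all 13909 tested genes, 30.1% were called higher and 28.8% lower. Those shares rest on the scaling: with upper-quartile scaling 41.5% of the called genes were higher and with library-size scaling 37.8%, in place of 51.1%. The median log2 change of all tested genes was then -0.20 and -0.28, in place of 0.01. The counts of called Hox members were 6 higher and 2 lower with upper-quartile scaling and 5 and 2 with library-size scaling. Of the 34 members with a count in either fraction, 17 had both PDGFRa-only libraries above both PECAM1-only libraries and 5 had both below. Among all genes with a count these shares were 27.9% and 33.1%.

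In the double-positive fraction against the PECAM1-only fraction, 4 tested members were higher (Hoxa10, Hoxa11, Hoxb4 and Hoxc9), against 21.8% of all tested genes. None was lower by edgeR, against 16.4% of all tested genes. In all, 6 members had an unadjusted p below 0.05 by edgeR, and DESeq2 called 3, none of them lower. Shares over all genes by these criteria are not given here, so these counts are not read as results about the members. With upper-quartile scaling 1 member was called lower and with library-size scaling 2, while the share of higher genes among all called genes was 43.3% and 39.8%, in place of 57.0%. Both libraries were above both PECAM1-only libraries for 13 of 37 members with a count and below for 3, against 26.6% and 27.6% of all genes with a count. This comparison shares its PECAM1-only libraries with the one before, so the 2 sets of values are not independent.

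Between the PDGFRa-only and double-positive fractions no tested member differed by edgeR. DESeq2 also called 0, and at an unadjusted p below 0.05 there was 1, Hoxc12, with 0 counts against 5. Shares over all genes by these criteria are not given here. The background of edgeR calls was 5.94% of all genes tested for a higher and 11.7% for a lower PDGFRa-only level. The higher share among all called genes was 33.7%, and 22.0% with library-size scaling. The changes of Hoxa11 (0.37, SE 0.330), Hoxa10 (0.21, SE 0.357), Hoxb4 (0.83, SE 0.435) and Hoxc9 (0.93, SE 0.609) were smaller than their changes against PECAM1-only. These are the members called in double-positive against PECAM1-only, so this difference in size is partly set by that choice. By mean CPM, the double-positive fraction lay between the other two for 11 of the 12 tested members, all but Hoxc13, against 76.1% of all tested genes. For Hoxd13 the double-positive and PECAM1-only libraries overlapped (means of 1.96 and 1.87 CPM), and the order of these fractions flipped with upper-quartile and library-size scaling. Hoxa10 stood there at 88.4% of its PDGFRa-only level, Hoxa11 at 78.2%, Hoxb4 at 56.3% and Hoxc9 at 52.2%. The libraries did not overlap for 10 of 36 members that were higher and 7 that were lower in the PDGFRa-only fraction, against 19.7% and 26.2% of all genes with a count.

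**Figure D3:**
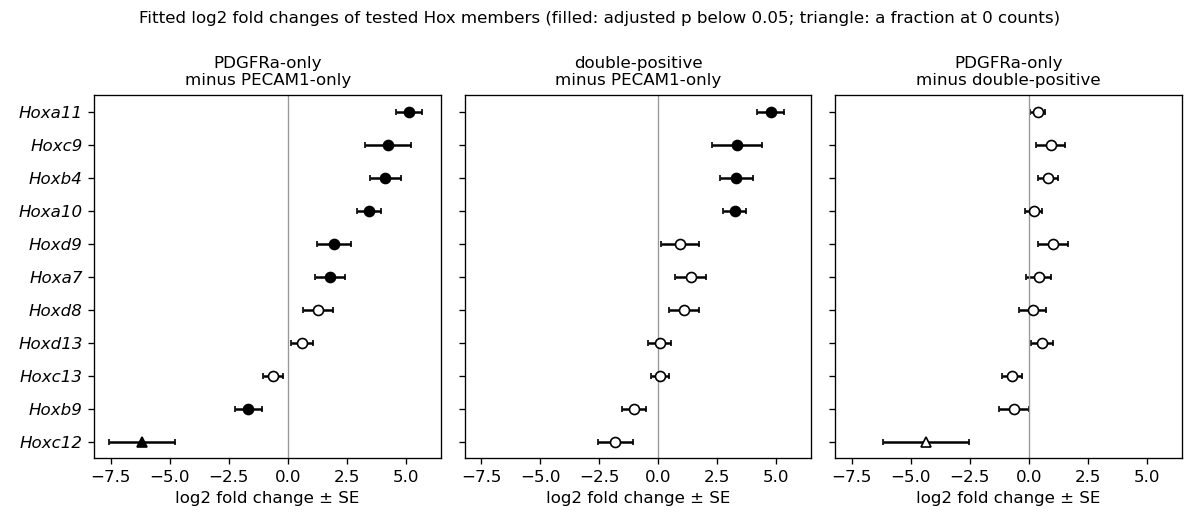
Fitted log2 fold change (x axis) with its SE for tested Hox members (y axis) in each comparison; filled symbols passed the test and a triangle marks a comparison with a fraction at 0 counts, where the fitted value is no bound. Filled symbols number 8 in the left panel, 4 in the middle panel and 0 in the right panel.

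Compared between genes per kilobase of exon, the order of the Hox genes differed between fractions. In the PDGFRa-only fraction Hoxa11 was highest at 4.86 CPM per kb (libraries 3.92 and 5.80), followed by Hoxa10 at 2.27 (1.64 and 2.90) and Hoxb4 at 1.68 (1.66 and 1.70). Hoxa11 did not overlap Hoxa10, while Hoxa10 and Hoxb4 overlapped. Double-positive cells had Hoxa11 at 3.80 CPM per kb, above Hoxa10 at 2.01 and Hoxc13 at 1.75, and the latter overlapped. The PECAM1-only fraction was led by Hoxc13 at 1.66 CPM per kb (1.30 and 2.03), Hoxc12 at 1.39 (1.36 and 1.41) and Hoxb9 at 1.25 (1.15 and 1.35). Hoxc13 overlapped each of these neighbours. All 3 leaders of the PECAM1-only fraction are posterior genes of HoxC and HoxB, and the 2 leading genes of the PDGFRa-only fraction are posterior genes of HoxA.

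**Figure D4:**
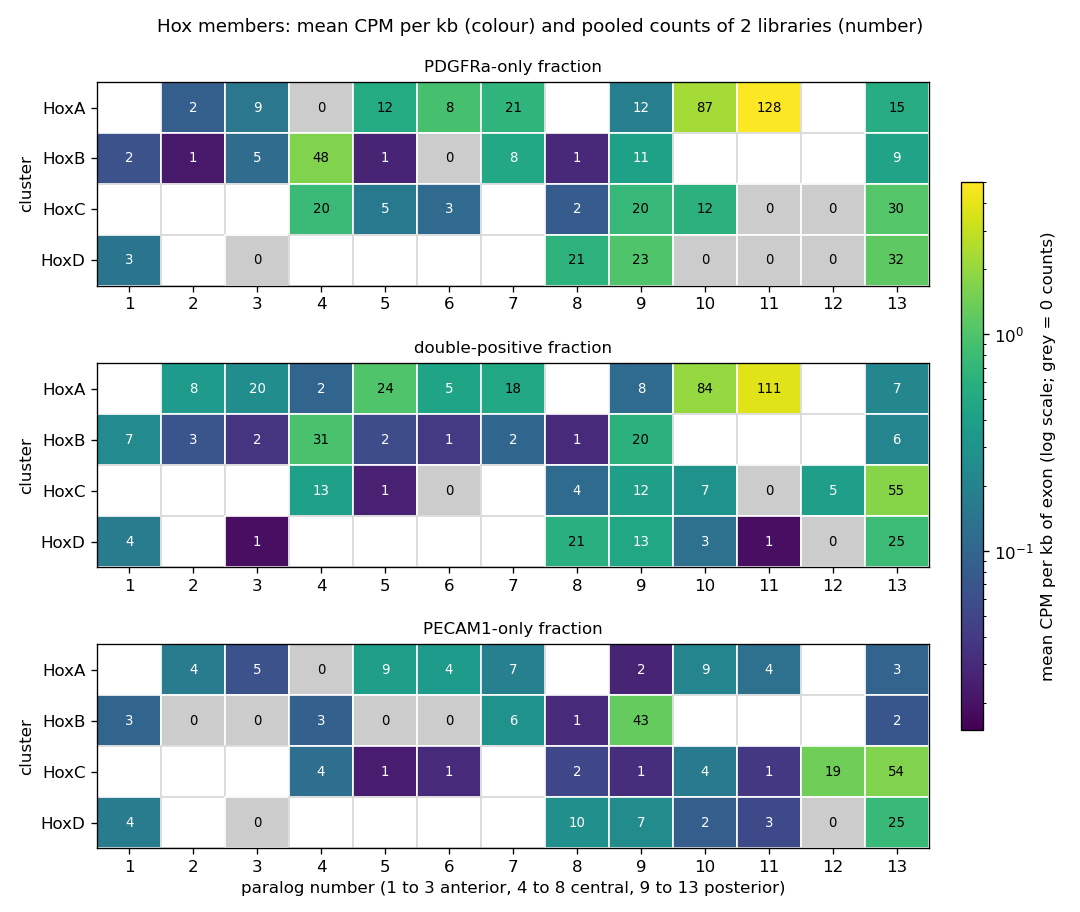
Mean CPM per kb of exon (colour, log scale, grey for 0 counts) and pooled counts of 2 libraries (numbers) for the Hox members, by cluster (rows) and paralog number (columns), in each fraction; white cells hold no value reported here. The 87 and 128 counts of Hoxa10 and Hoxa11 in the PDGFRa-only fraction stand against 9 and 4 in the PECAM1-only fraction, and many cells hold fewer than 10 counts.

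The members that were not tested, 26 in all, had few counts. Those with the highest totals were Hoxa5, Hoxc4 and Hoxa3. Hoxa5, a central gene that acts in lung development, had 2 and 10 counts in the PDGFRa-only, 7 and 17 in the double-positive and 1 and 8 in the PECAM1-only libraries, a pooled ratio of 1.60 between the single-positive fractions with a counting interval of 0.618 to 4.29. Hoxa3, an anterior gene of thymus and parathyroid development, had 6 and 3, 3 and 17, and 0 and 5 counts, a ratio of 2.16 with an interval of 0.649 to 8.19. The libraries of these fractions overlapped for both genes, and both intervals include equal levels. For double-positive over PECAM1-only the ratio was 2.77 (interval 1.245 to 6.78) for Hoxa5 and 4.16 (1.515 to 14.2) for Hoxa3. These intervals exclude equal levels, but the libraries overlapped, and double-positive replicate 2 held 17 counts of each gene. Hoxc4, a central HoxC gene, had 13 and 7 counts in the PDGFRa-only, 6 and 7 in the double-positive and 1 and 3 in the PECAM1-only libraries, a pooled ratio of 5.99 for the outer fractions with a counting interval of 2.01 to 24.1. Hoxa13, the limb-end gene of HoxA, had 7 and 8, 2 and 5, and 0 and 3 counts, a ratio of 5.99 with an interval of 1.69 to 32.3. Hoxa9, a regulator of blood progenitors, had 3 and 9, 3 and 5, and 1 and 1 counts, a ratio of 7.19 with an interval of 1.60 to 66.1. Hoxb13, the third HoxB member by total, had 8 and 1, 4 and 2, and 0 and 2 counts, and its libraries overlapped. Without the filter on low counts, Hoxa9, Hoxa13 and Hoxc4 were among the members also called higher in the PDGFRa-only fraction. In the HoxD cluster, Hoxd3 had 1 count in all, Hoxd10 5 and Hoxd11 4. Of Hoxd1, Hoxd3, Hoxd10, Hoxd11 and Hoxd12 no library held more than 3 counts, so differences of these genes between fractions were not detectable from these counts. Other genes share 62.8% of the Hoxd3 exon bases, 10.8% of those of Hoxd11 and 5.73% of those of Hoxd10. How reads in shared bases were counted was not examined here.

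The number of Hox genes with at least 1 count was 25 and 29 in the PDGFRa-only libraries, 32 and 31 in the double-positive libraries and 24 and 27 in the PECAM1-only libraries. Thinned to the smallest library, it was expected to be 25 and 26.9, 29.6 and 28.9, and 21.7 and 25.8. Genes with at least 5 counts numbered 16 and 16, 13 and 18, and 6 and 8. Over all genes of the table, the share with at least 1 count was 46.2% and 48.7% in the PDGFRa-only, 51.8% and 52.8% in the double-positive and 53.2% and 53.2% in the PECAM1-only libraries. The higher number of Hox genes with a count in the double-positive than in the PDGFRa-only fraction thus went with a higher share of all genes, whereas the PECAM1-only libraries had the highest share of all genes and the fewest Hox genes with 5 or more counts.

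Other transcripts inside the clusters moved in different directions. Besides Hoxa11as, 3 had at least 10 counts. Gm53, a noncoding RNA in the HoxB span, had 13 and 12 counts in the PDGFRa-only, 36 and 32 in the double-positive and 61 and 85 in the PECAM1-only libraries. It fell by 2.27 in the PDGFRa-only fraction against PECAM1-only (SE 0.371, adjusted p = 2.25e-05, edgeR) and by 1.05 in the double-positive fraction (SE 0.318, adjusted p = 0.0122). This was opposite to Hoxb4 of the same cluster, but in the direction of Hoxb9, the Hox member nearest to Gm53. Hoxb9 changed by -1.67 and -1.04 in these comparisons, the latter without passing the test. The pseudogene Gm11539 had the most counts in any cluster outside the Hox genes, 960, and its PDGFRa-only change of -0.39 did not pass the test (adjusted p = 0.108). Gm15051, in the HoxA cluster, had 9 and 7, 9 and 8, and 3 and 4 counts and was not tested. Hotair, the noncoding RNA of the HoxC cluster, had 4 counts in all. The listed miRNA genes of the clusters (Mir10a, Mir10b, Mir196a-1, Mir196a-2, Mir196b and Mir615) had 0 counts in these libraries.

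The nearest protein-coding neighbours on each side of the clusters were compared to see whether they moved with the Hox genes. These 24 genes lie 8.75 to 910.4 kb from the cluster. Of them, 20 were tested, and 4 rose and 9 fell in the PDGFRa-only against the PECAM1-only fraction. Of all tested genes 30.1% rose and 28.8% fell. Beside HoxA, where Hox levels differed most, none of the 5 tested neighbours rose, and Skap2 fell by 1.22 (adjusted p = 7.67e-06, edgeR). Beside HoxB, 4 of 5 fell, with Calcoco2 at 14 against 282 pooled counts. Beside HoxC, 3 of 5 fell and 2 rose, Atf7 by 0.85 and Smug1 by 0.84 (adjusted p = 0.00579 and 0.00461, edgeR). On the sides of HoxD, Atp5g3, 757 kb away, rose by 0.79 and Nfe2l2, 910.4 kb away, by 0.50 (adjusted p = 2.24e-04 and 0.0101, edgeR), while the nearer Lnp and Mtx2, 88.9 and 60.7 kb away, did not pass the test. The homeobox genes Evx1 and Evx2, which flank HoxA and HoxD, had 1 and 0 counts in all. None of the 8 Cdx, ParaHox and Evx genes, relatives of the Hox genes that include the Cdx regulators of posterior Hox expression, had more than 8 counts in all, and none was tested. Cdx2 had 3 and 2, 2 and 0, and 0 and 0 counts in the PDGFRa-only, double-positive and PECAM1-only libraries.

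Among the cofactors of Hox proteins the members moved in both directions. Of 9 TALE genes, 2 rose and 6 fell in the PDGFRa-only against the PECAM1-only fraction, with a median log2 change of -0.93 against 0.01 over all tested genes. Of all tested genes, 30.1% were called higher and 28.8% lower in this comparison. Meis1, the cofactor that pairs with posterior HoxA proteins in blood cells, had 95 and 138 counts in the PDGFRa-only, 90 and 103 in the double-positive and 19 and 17 in the PECAM1-only libraries. It rose by 2.95 (SE 0.283, adjusted p = 1.45e-08, edgeR). Meis3 had 56 and 48, 24 and 42, and 1 and 4 counts, and rose by 4.61 (SE 0.572, adjusted p = 6.02e-07). Most TALE genes went the other way. Among the 6 that fell, Meis2 had 53 and 81, 129 and 155, and 289 and 194 counts, and fell by 1.59 (SE 0.231, adjusted p = 5.30e-06, edgeR). Pknox2 had 6 and 4, 22 and 30, and 48 and 31 counts, and fell by 2.67 (SE 0.502, adjusted p = 1.10e-04). In the double-positive fraction 2 TALE genes rose and 4 fell against PECAM1-only, where 21.8% of all tested genes rose and 16.4% fell. Between the PDGFRa-positive fractions 0 rose and 3 fell in PDGFRa-only, against 5.94% and 11.7% of all tested genes.

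Of 27 Polycomb genes, 9 rose and 13 fell in the PDGFRa-only against the PECAM1-only fraction, with a median of -0.31. The shares over all tested genes were 30.1% higher and 28.8% lower. Phc1, a subunit of Polycomb repressive complex 1, had 140 and 168 counts in the PDGFRa-only, 1418 and 1136 in the double-positive and 4610 and 4095 in the PECAM1-only libraries. It fell by 4.54 (SE 0.194, adjusted p = 5.20e-14, edgeR). Jarid2, which helps recruit Polycomb repressive complex 2 in ESCs, had 538 and 731, 2372 and 1816, and 5787 and 3453 counts, and fell by 2.58 (SE 0.204, adjusted p = 7.80e-10). Phf19, another accessory subunit of that complex, had 2 and 0, 27 and 25, and 86 and 115 counts, a pooled ratio of 83.9 with a counting interval of 22.9 to 698 (adjusted p = 1.07e-08). Among the core genes the enzyme Ezh2 fell by 1.25 while its relative Ezh1 rose by 1.77 (adjusted p = 1.04e-06 and 2.46e-07). With upper-quartile and with library-size scaling 7 Polycomb genes rose and 14 fell. In the double-positive fraction 6 rose and 13 fell against PECAM1-only, where 21.8% of all tested genes rose and 16.4% fell. In PDGFRa-only against double-positive 1 rose and 6 fell, against 5.94% and 11.7% of all tested genes.

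Trithorax and H3K27 demethylase genes mostly fell as well, 7 of 10, and 1 rose, with a median of -0.63. Over all tested genes 28.8% fell and 30.1% rose. Ash2l, Psip1 and Dpy30, which serve histone methyltransferase complexes of the Mll family, fell by 1.55, 1.79 and 1.16 (SE 0.156, 0.188 and 0.175, adjusted p = 3.19e-08, 5.76e-08 and 8.27e-06, edgeR). Ash2l had 742 and 1190 counts in the PDGFRa-only, 1846 and 1646 in the double-positive and 3401 and 3297 in the PECAM1-only libraries. Against PECAM1-only 1 of the 10 rose and 5 fell in the double-positive fraction, where with upper-quartile and with library-size scaling 0 rose and 7 fell. In PDGFRa-only against double-positive 1 rose and 2 fell, and 0 and 2 with either scaling. Of all tested genes, 21.8% rose and 16.4% fell in double-positive against PECAM1-only. In PDGFRa-only against double-positive 5.94% rose and 11.7% fell.

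Of 15 retinoic acid genes, 13 were tested, and 5 rose and 7 fell in the PDGFRa-only against the PECAM1-only fraction, with a median of -1.16. Beside these stand the 30.1% higher and 28.8% lower of all tested genes. Cyp26a1, which degrades retinoic acid, had 661 and 1123 counts in the PDGFRa-only, 536 and 607 in the double-positive and 7 and 4 in the PECAM1-only libraries. It rose by 7.55 (SE 0.280, adjusted p = 7.50e-15, edgeR). Stra6, a retinol transporter, had 315 and 358, 231 and 213, and 8 and 15 counts, and rose by 5.14 (SE 0.294, adjusted p = 4.43e-12). The receptor gene Rarg had 14 and 10, 149 and 132, and 552 and 381 counts, and fell by 4.99 (SE 0.300, adjusted p = 9.73e-12). In the double-positive against the PECAM1-only fraction 5 rose and 4 fell, and 5 and 7 with upper-quartile and with library-size scaling. The shares of all tested genes in that comparison were 21.8% higher and 16.4% lower. In PDGFRa-only against double-positive 2 rose and 5 fell, against 5.94% and 11.7% of all tested genes. Except where stated, these list counts were the same under both scalings or differed by at most 2 genes.

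**Figure D5:**
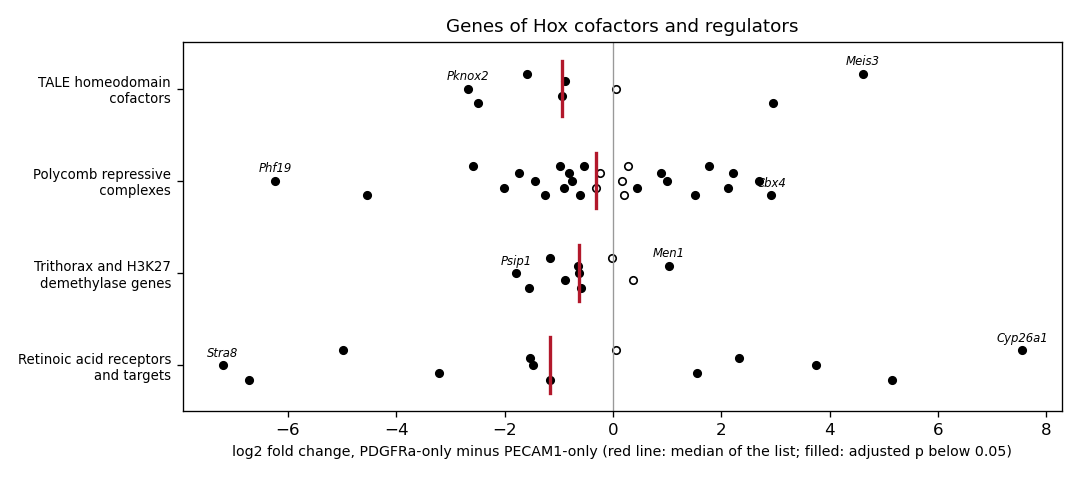
Log2 fold change (x axis), PDGFRa-only minus PECAM1-only, of tested genes in the lists of Hox cofactors and regulators (y axis); filled points passed the test, the red line is the median of a list, and the outermost genes shown are named. Aldh1a2, with 0 counts in the PDGFRa-only fraction, has a fitted value that is no bound.

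Markers of other cell types that use Hox genes were at these levels. Of 8 primitive streak and caudal mesoderm markers 7 were not tested, and T had 2 counts in all. The list summed to 5.73 to 8.51 CPM in the PDGFRa-only, 10.2 to 10.3 in the double-positive and 9.22 to 12.5 in the PECAM1-only libraries. Most of each sum was Eomes, the only tested marker, at 7.6 and 4.2, 8.8 and 9.4, and 10.6 and 7.2 CPM. Eomes passed the test in no comparison. Neural and hindbrain markers summed to 1.79 to 2.11, 7.69 to 16.7 and 25.2 to 26.6 CPM, with Sox1 and Pax6 lower in the PDGFRa-only fraction and Neurog2 at 0 counts. Fibroblast markers summed to 2.91 to 7.54, 5.02 to 7.33 and 2.61 to 3.75 CPM, with Prrx1 at 0 and Dcn at 3 counts in all. Of the 9 fibroblast markers 2 were tested; the collagen gene Col1a2, with 6 and 31, 14 and 21, and 2 and 0 counts, rose in the PDGFRa-only fraction (adjusted p = 2.93e-04, edgeR), and Twist1 did not pass the test (adjusted p = 0.435). Other members had few counts: Col1a1 had 2 and 1, 5 and 8, and 5 and 7, and Thy1 had 0 and 0, 1 and 2, and 3 and 3. Endothelial markers summed to 84.7 to 134, 67.4 to 83.7 and 13.6 to 14.5 CPM. Cdh5 alone held 116.5 and 60.9 CPM in the PDGFRa-only libraries. Of the 3 tested endothelial markers, Cdh5 and Kdr rose, against 30.1% of all tested genes. The third, Tek, changed by -0.395 and did not pass the test (adjusted p = 0.187, edgeR). Erg and Emcn had 0 counts, Tie1 had 2 in all and Sox18 had 10. Blood markers summed to 303 to 325, 229 to 265 and 146 to 169 CPM. Of the 3 tested, 1 rose and 1 fell, against 30.1% and 28.8% of all tested genes. Kit rose by 1.03 and held 8619 counts over all libraries, while Cd34 fell by 3.01 (adjusted p = 0.00618, edgeR), with 0 and 2 counts in the PDGFRa-only, 5 and 4 in the double-positive and 12 and 9 in the PECAM1-only libraries. Ptprc had 0 counts in every library, and Gata1 and Tal1 had 0 in both PDGFRa-only libraries against 6 and 4, and 6 and 7, in the PECAM1-only libraries. The part of cells with fibroblast or endothelial markers in the differences of Hoxa10, Hoxa11, Hoxb4 and Hoxc9 was not tested.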

How the data were processed

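Raw counts per Ensembl gene were deposited by the authors for 6 libraries of RNA amplified from 100000 sorted events each. HTSeq 0.5.4p3, TopHat2 2.0.8b, Bowtie2 2.1.0, cutadapt 1.2.1 and the build GRCm38 are named, without roles, in the submitters' processing notes; annotation release and strand setting are not given in the sources used here. Of the identifiers, 36639 matched GENCODE M21, which gave positions and exon lengths. Values in the authors' deposited RPKM table, preprocessed in a way that is not stated, covered 16105 genes and served only as an alternative, with limma on log2(RPKM + 1).

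Counts were tested with edgeR 4.0.16 in R 4.3.3 (quasi-likelihood, robust, 2-sided, TMM scaling, 1 mean per fraction, 6 libraries, 3 residual degrees of freedom) on the 13909 genes kept by filterByExpr (minimum count 10), with Benjamini-Hochberg adjustment over all of them and a threshold of 0.05. The SE of a log2 change was derived from its quasi-likelihood F. CPM values used TMM-scaled library sizes; the script was tested on simulated data. limma 3.58.1, DESeq2 1.42.0 and Python 3.11.15 were also used. Intervals of pooled ratios are exact binomial at 95%.

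The Hox members, gene lists and tests were chosen with earlier results of these data known. Values in every library are given for tested members and the 3 members of each cluster with the most counts. Of each list, the 3 tested genes with the smallest p between the single-positive fractions are named. Ezh1, Ezh2, Meis2, Pknox2, Hoxa3, Hoxa5, Hoxa9, Hoxa13 and Cdx2 were added after their values were seen. Cluster transcripts with at least 10 counts were described. Some genes that fall under these rules are not reported here. Alternatives were the scaling, the tool, the filter, the libraries in the fit, the replicate block and the RPKM values.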

Additional observations from a re-analysis of the deposited data

How the results depend on the processing

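Hoxa10, Hoxa11 and Hoxb4 were called higher in both PDGFRa-positive fractions against PECAM1-only in all 14 alternatives. Hox members called higher in PDGFRa-only against PECAM1-only numbered 6 as reported, 10 with no count filter and 10 with RPKM and limma. They numbered 3 with a minimum count of 20 and 3 with only the 2 fractions compared, where fewer members were tested. The set of tested genes changed with the filter, and the share of all genes called under these alternatives is not given here. These counts therefore show dependence on the setting, not a result about the members. Members called lower numbered 2 as reported and 1 with a minimum count of 20, with only the 2 fractions compared and with DESeq2; leaving out single libraries gave 0 to 2. In double-positive against PECAM1-only, 0 lower members became 1 with upper-quartile scaling, 2 with library-size scaling, 1 with only the 2 fractions compared and 1 with RPKM. In PDGFRa-only against double-positive, 0 higher members became 1 with RPKM. Over all genes, library-size scaling gave 3658 in place of 2288 lower genes in double-positive against PECAM1-only, and 528 in place of 826 higher genes in PDGFRa-only against double-positive; leaving out single libraries gave 1307 to 2788 and 218 to 1235. The cause was not tested. Some summed levels moved by more than 1 SD, each with upper-quartile and library-size scaling in turn: HoxB in PECAM1-only (4.76 and 4.90 CPM), HoxD in PDGFRa-only (6.70 and 6.52) and in PECAM1-only (4.17 and 4.30), central members in PDGFRa-only (12.8 and 12.5) and in double-positive (9.50 and 9.47), and posterior members in double-positive (27.1 and 27.04); posterior members in PECAM1-only were at 15.2 CPM with library-size scaling. For HoxC, library-size scaling gave 7.35 CPM in double-positive and 7.39 in PECAM1-only.

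The titles of the libraries end in Exp1 or Exp2, which may name experiments, but no label says that fractions of the same number were sorted from the same culture or day. The differences between replicates correlated across genes with r = 0.18, -0.03 and 0.13 for the 3 pairs of fractions. With the replicate number as a block, the Hox calls were 6 higher and 2 lower, 4 and 0, and 0 and 0, as without it. Among the single-gene results, 428 kept their sign and their side of the threshold, 16 lost a call and 12 gained one. In 16 the sign flipped with no call in either fit, and in 0 it flipped where a fit had a call. Depth limits the members with few counts: a fraction at 0 counts allows a level of up to 0.226 to 0.270 CPM.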
